A study of Mus musculus with 11 samples.

Results

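The genes described here are 10 genes that mark granulosa cells or make steroid hormones in the ovary: Inha, Amh, Foxl2, Fshr, Cyp19a1, Star, Cyp11a1, Cyp17a1, Hsd3b1 and Serpine2. They were chosen by name as rows of the count table, and 9 of the 10 have a row among the 18305 genes counted. Amh, which encodes anti-Mullerian hormone of granulosa cells, has no row and was not analysed here. The 27 libraries came from a study of organoids, cultured epithelial cysts grown in a gel, as models of high-grade serous ovarian cancer. Oviduct tissue (3 libraries) and ovarian surface epithelium (OSE) tissue (3 libraries), oviductal organoids (3 libraries) and OSE organoids (2 libraries) came from wildtype C57BL/6 female mice, for which the methods give an age of 8 to 12 weeks. A further OSE organoid line was excluded by the authors as contaminated. Oviductal organoids from mice that express Cas9 and GFP in all cells (Cas9-GFP organoids, 3 libraries) are the kind of line from which oviductal TBP clones were made (3 libraries), grown from edited organoids picked after Nutlin-3a selection and carrying targeted mutations that include Trp53 and Brca1. The design text calls the TBP clone libraries independent, while the methods give 2 clones for each mutation type, so libraries may share a clone. All TBP libraries therefore also carry Cas9 and GFP. TBP clones placed under the skin of immunodeficient NSG mice gave the 6 TBP tumors. The 4 lines of tumor organoids (T1-mes, T2-epi, T3-mes and T4-epi) were grown under Nutlin-3a from tumors of oviductal TBP cells, which the study traces to 1 starting clone, so they are not independent as clones. RNA of a whole tumor includes cells of the host. To start OSE organoids, sheets were loosened from whole ovaries with pronase, and how the OSE tissue for RNA was taken is not given in the sources used here. Unless the study says otherwise, both kinds of organoids were kept in a medium with WNT and estrogen.

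In the ovary, granulosa cells surround the oocyte within a follicle. Follicle-stimulating hormone acts on them through its receptor and raises aromatase, which turns androgens into estrogens, and inhibin, which feeds back on the pituitary. Theca cells around the follicle supply the androgens, and after ovulation the luteal cells make progesterone. The surface epithelium is a separate sheet of mesothelial type that covers the organ and is not the main source of these hormones. The comparison of OSE tissue with OSE organoids asks whether the RNA of hormone-producing cells was present in the surface preparation and in the cultures grown from the ovarian surface.

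RNA was counted at the transcript's 3′ end by CEL-Seq2, and levels are given as CPM, read counts scaled to the size of each library with TMM factors. Library totals ranged from 82239 reads in TBP clone 1 to 4531767 in TBP clone 3, and a count of 0 allows up to 3 reads, which is 0.684 to 33.5 CPM depending on the library. TBP clone 1 could therefore show only high levels. Tissues and tumors were extracted with Trizol and organoids with a column kit, so the extraction and the step from tissue to organoid cannot be told apart.

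The 9 genes together took 1.35%, 1.48% and 1.39% of all reads in the 3 OSE tissue libraries, a mean of 1.41% ± 0.0684 (SD, n = 3). In oviduct tissue they took 0.0101%, 0.0285% and 0.0228%. The 2 OSE organoid libraries gave 11 and 44 reads on these genes, or 0.000700% (exact 95% binomial interval 0.000349 to 0.00125) and 0.00203% (0.00148 to 0.00273) of their reads. The OSE tissue libraries lay close together and far above every other library, and no other library exceeded 0.0285%. Within OSE tissue Hsd3b1 gave 44.6% to 47.4% of the reads on the 9 genes and Inha 29.0% to 30.2%. Reads were not collapsed by molecular identifier, so intervals cover counting error only.

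**Figure D1:**
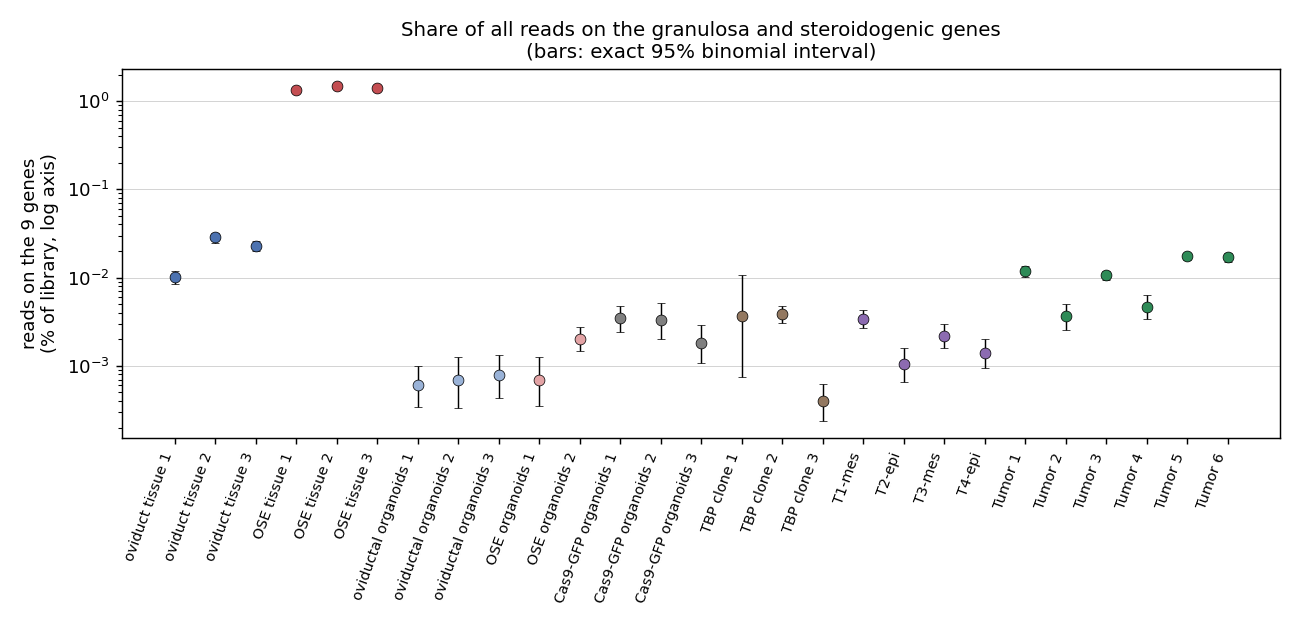
Reads on the 9 genes as a percentage of all reads (log axis), 1 point per library with its exact 95% binomial interval, coloured by group. The 3 OSE tissue libraries lie at 1.35% to 1.48%, and every other library is at or below 0.0285%.

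All 9 genes were higher in OSE tissue than in OSE organoids (adjusted p from 0.000328 to 0.00106, edgeR quasi-likelihood test), where 18.6% of the 10232 genes tested were called higher. Their fitted log2 fold changes ran from 5.87 to 15.97 with a median of 10.05, or 6.60 with genes at the detection floor set to their bound, beside a median of 0.06 over all genes. The tissue and organoid libraries did not overlap for any of the 9, as for 33.8% of all genes in this direction. Of the 9, 7 had at most 3 reads in each organoid library and passed the filter on low counts through their tissue reads alone, so these counts are a description. Fewer cells of a type and less RNA per cell cannot be told apart in bulk RNA.

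Inha, on mouse chromosome 1 (75507077 to 75510366, plus strand, GRCm38), encodes the alpha subunit of inhibin, which pairs with an activin subunit to form the hormone. Its level was 3198, 3845 and 3644 CPM in OSE tissue, and 4.58 and 8.61 CPM in OSE organoids. Every tissue library was above every organoid library, with a log2 fold change of 9.0 (SE 0.48, adjusted p = 0.000328, edgeR). The organoid mean was 0.185% of the tissue mean. Inha was still read in every one of the 27 libraries, with 1 to 68 reads outside the normal tissues.

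Foxl2, a transcription factor that keeps granulosa cell identity (chromosome 9, 98955288 to 98958543, plus strand), was at 27.9, 41.9 and 43.0 CPM in OSE tissue. The OSE organoids held 0 reads and 1 read, which puts the tissue at least 19.7-fold higher against a floor of 3 reads per library. Fshr, the receptor for follicle-stimulating hormone (chromosome 17, 88984952 to 89200675, minus strand), was at 51.6, 46.6 and 44.6 CPM in OSE tissue and had 0 reads in both OSE organoids, at least a 25.0-fold difference. Outside the normal tissues Foxl2 had 1 read in all and Fshr had 0 reads in all. The transcript of Foxl2 faces an antisense gene, Foxl2os, and counting was done in the direction of transcription.

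The genes of steroid synthesis follow the pathway from cholesterol to estrogen. Star (chromosome 8, 25806555 to 25815982, plus strand) encodes the protein that carries cholesterol into the mitochondrion. It was at 387.6, 482 and 643 CPM in OSE tissue and at 3.82 and 12.2 CPM in OSE organoids, a log2 fold change of 5.87 (SE 0.56, adjusted p = 0.000826, edgeR). Without OSE organoids 2, which had 24 reads against 5 in OSE organoids 1, the log2 fold change was 7.01. Star and Inha were the only 2 of the 9 genes above 3 reads in an OSE organoid library.

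Cyp11a1 (chromosome 9, 58006411 to 58027023, plus strand) encodes the enzyme that cuts the cholesterol side chain to give pregnenolone. It was at 675, 768 and 839 CPM in OSE tissue, with 0 and 2 reads in OSE organoids, at least a 399.5-fold difference. The annotation places another gene, Gm17322, over it on the same strand, so reads of the overlap are uncertain. Hsd3b1 (chromosome 3, 98852194 to 98859794, minus strand), whose enzyme turns pregnenolone into progesterone, was at 4913, 6037 and 5842 CPM in OSE tissue. It had no read in any of the 15 organoid and clone libraries, and OSE tissue was at least 2939-fold higher than OSE organoids. Its neighbouring copies Hsd3b2 to Hsd3b6 on chromosome 3 have no row in the table, so which copies the reads came from is uncertain.

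Cyp17a1 (chromosome 19, 46667165 to 46673172, minus strand) encodes the enzyme of androgen synthesis typical of theca cells, and Cyp19a1 (chromosome 9, 54165937 to 54268110, minus strand) encodes aromatase, typical of granulosa cells. Cyp17a1 was at 180, 164 and 211 CPM in OSE tissue with 0 reads in both OSE organoids, at least a 97.2-fold difference. Cyp19a1 was at 75.3, 109 and 91.8 CPM with 0 reads in both, at least a 48.4-fold difference. Cyp19a1 had no read in any library other than the normal tissues.

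Fshr, Cyp19a1 and Hsd3b1 were the 3 genes with 0 reads in every organoid library, and the stretch of 100 bases just upstream of a start site of each is shown to let the promoters be set side by side. Of the Cyp19a1 start sites the one with the most motif matches in this stretch was taken, so its matches follow from that choice. The sequences are those of RefSeq (GRCm38.p6), each read 5′ to 3′ on the minus strand and ending at the base before the start site. Capitals mark a match to any of 3 motifs searched on both strands: AAGGTCA, the site bound by the steroidogenic factor SF-1; TGACGTCA, the cyclic AMP response element; and TATAAA, the TATA box.
Cyp19a1, chr9:54228915-54229014: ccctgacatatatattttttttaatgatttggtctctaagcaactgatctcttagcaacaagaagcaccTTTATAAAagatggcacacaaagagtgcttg
Hsd3b1, chr3:98859795-98859894: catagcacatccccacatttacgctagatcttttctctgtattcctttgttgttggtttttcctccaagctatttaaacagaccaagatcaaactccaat
Fshr, chr17:89200676-89200775: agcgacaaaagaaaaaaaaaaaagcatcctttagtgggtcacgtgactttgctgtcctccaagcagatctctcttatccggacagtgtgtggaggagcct
The capitals in Cyp19a1 are TATAAA at 29 bases before the start site overlapping TTTATA, its reverse complement, on the same letters. The Hsd3b1 and Fshr stretches hold none of the 3 motifs. RefSeq windows of 250 bases before to 50 after a start site were at hand for 10 start sites of 7 of the 10 genes, not for Amh, Star and Cyp17a1. In these windows TATAAA occurred at 2 of the 3 Cyp19a1 start sites and at no other member's, against 13.6% of the 32851 windows of all genes. At the Cyp19a1 site not printed it was on the reverse strand only, at −157 and −143 from the start site. AAGGTCA and TGACGTCA occurred in none of the 10, against 4.72% and 1.79% of all windows, which says only that these letters are not there. The Cyp11a1 windows were at start sites 57998024 and 58014952, so the sequence before its annotated gene start at 58006411 was not searched. The windows of Inha, Foxl2 and Serpine2 lay inside the annotated gene, so the sequence before their outer gene start was not searched either. Annotated exons cover all 250 upstream bases of the Foxl2 window and of a Cyp11a1 window. They also cover 160 of these bases for Inha and 31 for Serpine2, so such windows are not purely promoter sequence. Counts at the 3′ end do not tell which of the Cyp19a1 start sites was used.

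Serpine2 (chromosome 1, 79794197 to 79861180, minus strand) encodes a secreted inhibitor of serine proteases, made by granulosa cells and also by fibroblasts and other cells. It was at 1501, 1255 and 1217 CPM in OSE tissue and had 0 reads in both OSE organoids, at least a 695-fold difference. The 3 oviductal organoids had 2 to 5 Serpine2 reads each, and T1-mes and T3-mes had 59 and 28.

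**Figure D2:**
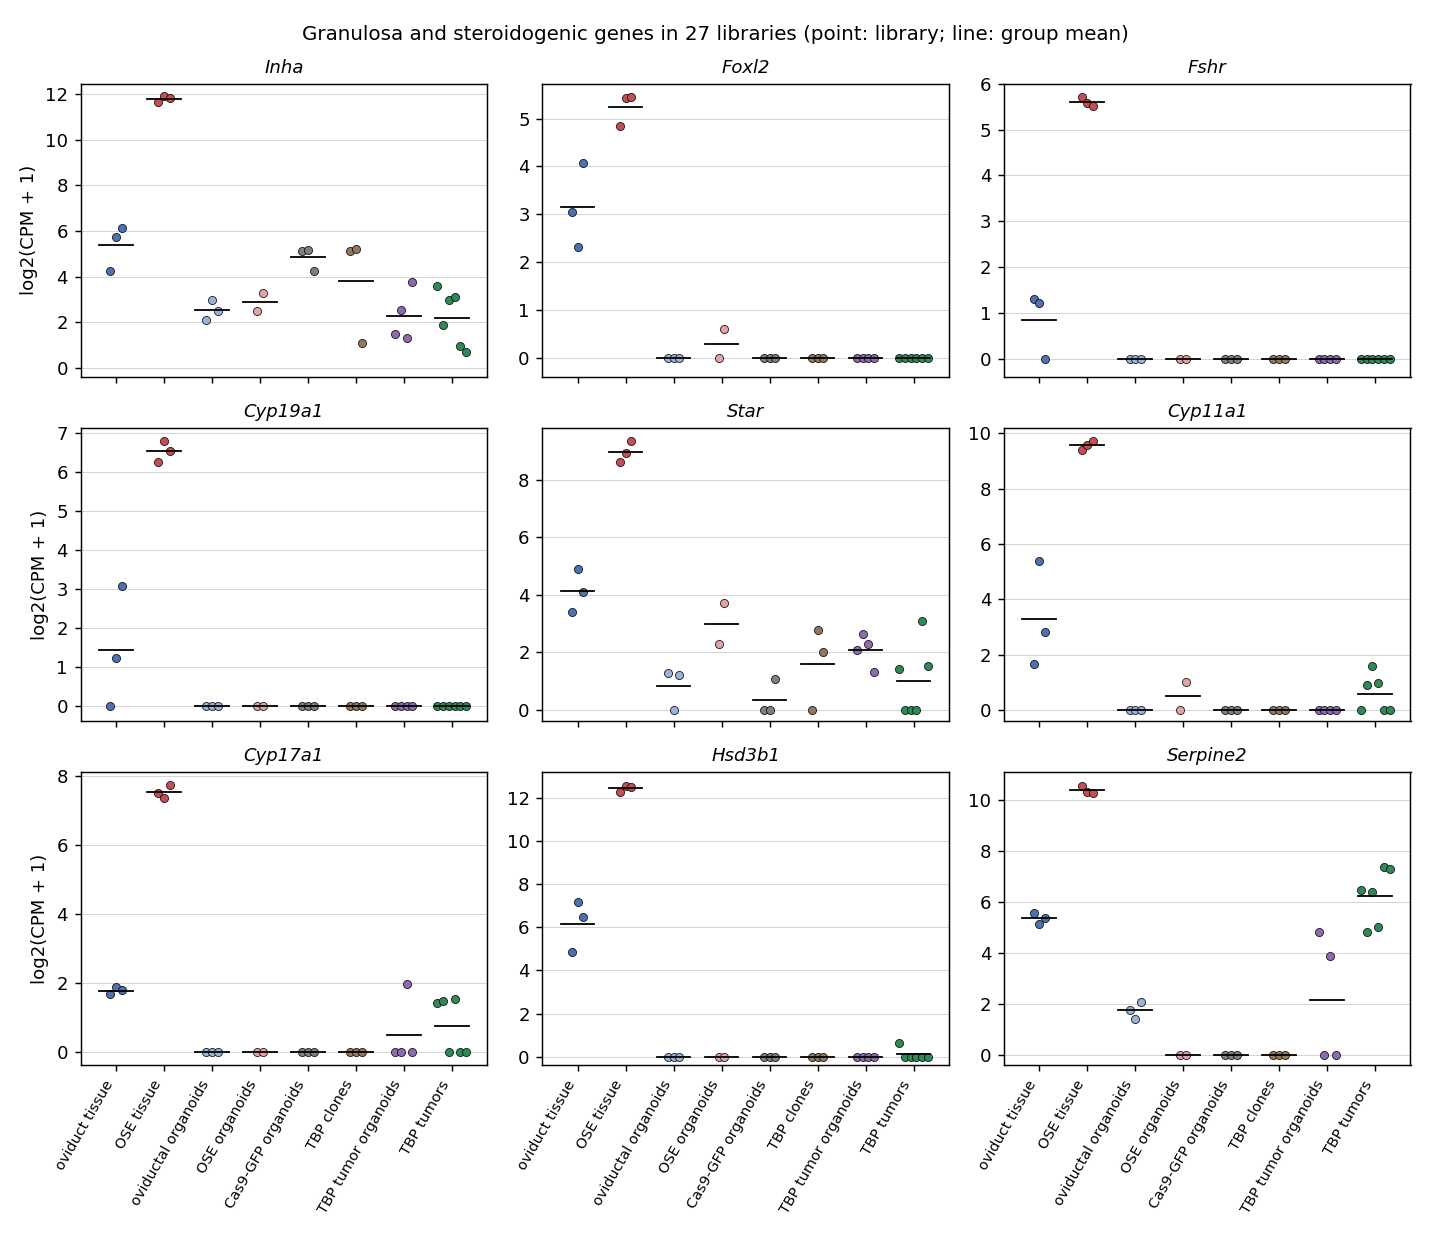
Level of each gene in log2(CPM + 1), 1 point per library, in the 8 groups, with a line at the mean of each group's log values. OSE tissue is the highest group in all 9 panels, oviduct tissue is next in 8 of them, and in 6 panels most organoid, clone and tumor libraries sit at 0.

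Oviduct tissue was the next highest group for 8 of the 9 genes, and all 9 were called higher in OSE tissue than in oviduct tissue (adjusted p from 1.74e-10 to 0.000257, edgeR), beside 24.3% of the 8787 genes tested. The 2 tissues did not overlap for any of the 9, as for 29.9% of all genes in this direction. The median log2 fold change of the 9 was 5.39, or 5.17 with bounds, and 0.00 over all genes. Inha was at 18.1, 52.6 and 69.7 CPM in oviduct tissue, a log2 difference of 6.29 (SE 0.36). Hsd3b1 was at 27.6, 143 and 86.8 CPM there, a log2 difference of 6.05 (SE 0.43). Serpine2 was at 45.7, 34.2 and 40.3 CPM, a log2 difference of 5.0 (SE 0.20).

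For 8 of the 9 genes the oviduct tissue mean was 1.31% to 3.59% of the OSE tissue mean, and the summed level of the 9 was 1.84% of it. Foxl2 stood apart at 24.0%, with 7.26, 3.95 and 15.9 CPM in oviduct tissue and a log2 difference of only 2.06 (SE 0.37, adjusted p = 0.000257, edgeR). Its reads in oviduct tissue were few, at 10, 3 and 13, and in a fit of all 27 libraries its adjusted p was 0.0561. Cyp11a1 was uneven between the oviduct tissue libraries, at 2.18, 40.8 and 6.11 CPM, and its log2 difference of 5.72 (SE 0.50) became 7.63 without oviduct tissue 2 and 4.97 without oviduct tissue 1. Cyp19a1 had 0, 1 and 6 reads in oviduct tissue, with a log2 difference of 5.17 that became 7.30 without oviduct tissue 3 and 4.28 without oviduct tissue 1. The Hsd3b1 difference became 6.65 without oviduct tissue 2. For Fshr (0 to 2 reads) and Cyp17a1 (2 or 3 reads) oviduct tissue was at the floor, and OSE tissue was at least 14.6-fold and 56.7-fold higher.

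**Figure D3:**
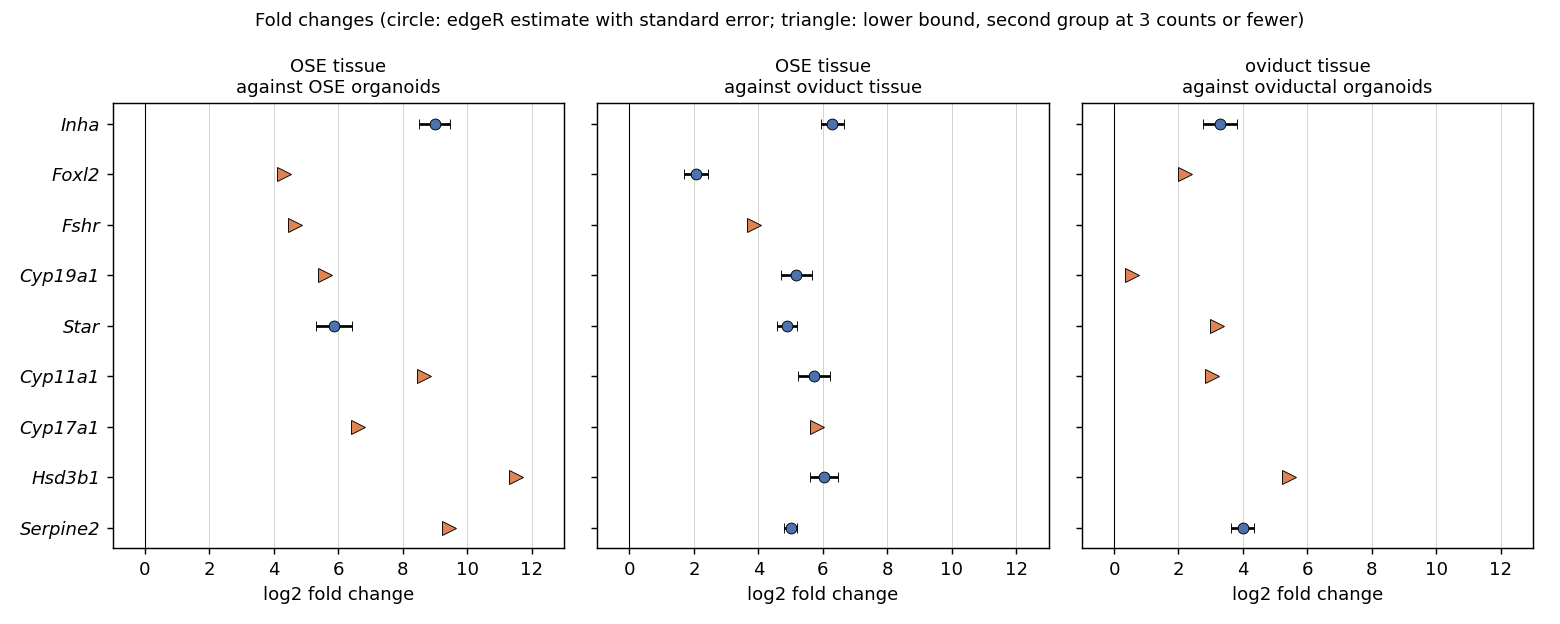
Log2 fold change of each gene in 3 comparisons. Circles are edgeR estimates with their standard error and triangles are lower bounds where the group compared against had 3 reads or fewer in each library. Fshr and Cyp17a1 are not drawn in the right panel, where both groups were at the floor. All values lie above 0, and Foxl2 has the smallest difference between the tissues.

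The same step from tissue to organoid could be followed in the oviduct, at lower levels. Of the 9 genes, 4 had enough reads to be tested between oviduct tissue and oviductal organoids, and all 4 were higher in the tissue (edgeR), beside 24.2% of the 9477 genes tested; a gene that passed only through its tissue reads had to differ, so this count supports nothing. Inha fell from 46.8 ± 26.2 to 4.90 ± 1.74 CPM (SD, n = 3 each), a log2 difference of 3.28 (SE 0.53, adjusted p = 0.000361, edgeR). Serpine2 was at 2.38, 1.69 and 3.28 CPM in the organoids, a log2 difference of 3.99 (SE 0.37, adjusted p = 6.02e-06, edgeR). Star and Hsd3b1 were at least 9.14-fold and 43.4-fold higher in oviduct tissue, with 0 to 3 and 0 reads in the organoids.

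Whether this step was larger for the OSE than for the oviduct was tested as an interaction over the 11 wildtype libraries. The step was called larger for OSE in 2 of the 9 genes, Inha and Serpine2, beside 5.0% of the 11458 genes tested. For Inha the 2 steps differed by 5.80 on the log2 scale (SE 0.76, adjusted p = 0.000636, edgeR). The 2 organoid groups overlapped for Inha, so this mostly restates its log2 difference of 6.29 between the tissues. For Serpine2 the adjusted p was 2.27e-05 (edgeR). Its size depends on the prior count because OSE organoids had 0 reads, and oviductal organoids had 2 to 5. For Star the difference was 1.98 (SE 1.14, adjusted p = 0.292, edgeR), and the other 6 genes were at or under 3 reads in both organoid groups, so that edgeR could not estimate it. DESeq2 called 4 genes, beside 5.21% of all genes. The other 2, Cyp17a1 and Hsd3b1, had 0 reads in all 5 wildtype organoid libraries, so these calls restate the difference between the tissues and are not read as a difference between the steps.

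Between the 2 kinds of wildtype organoids none of the 9 genes had enough reads to be tested. Of 9257 genes edgeR called 0% higher and 0.0864% lower in OSE organoids, with 462 higher and 598 lower at an unadjusted p under 0.05, and DESeq2 called 78 higher and 186 lower. Inha was at 4.58 and 8.61 CPM in OSE organoids and at 3.34, 6.77 and 4.59 CPM in oviductal organoids, and the groups overlapped. Star had 5 and 24 reads in OSE organoids and 3, 0 and 2 in oviductal organoids. Serpine2 had 0 reads in both OSE organoids and 5, 2 and 5 in oviductal organoids. Neither Star nor Serpine2 overlapped between the groups, as for 14.3% of all genes higher and 15.4% lower in OSE organoids.

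Inha was the member most often read in edited and Cas9-GFP cultures. It was at 34.4, 34.5 and 18.2 CPM in Cas9-GFP organoids, above each of the 3 wildtype oviductal organoids, as for 20.4% of 8323 genes. In TBP clones it had 3, 68 and 5 reads. TBP clone 2 was at 36.4 CPM and TBP clone 3 at 1.14 CPM, so the clone libraries spread over the range of all organoid groups, and the 3 reads of TBP clone 1 were at its floor. In the order of group means Inha ran from OSE tissue through oviduct tissue (46.8 CPM), Cas9-GFP organoids (29.0), TBP clones (23.7), OSE organoids (6.60), tumor organoids (5.16), tumors (4.91) and oviductal organoids (4.90), and from oviduct tissue down each neighbour overlapped the next.

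In TBP tumors and tumor organoids the steroid genes were near or at 0. Star had 3 to 11 reads in the 4 tumor organoid lines and 0 to 23 in the 6 tumors. Cyp17a1 had 6 reads in T3-mes and 0 in the other 3 lines, and at most 3 reads in a tumor. Cyp11a1 had at most 6 reads in a tumor and Hsd3b1 had 1 read in 1 tumor, while Foxl2, Fshr and Cyp19a1 had 0 reads in all 10 libraries. Inha was at 0.614 to 10.9 CPM in tumors (median 4.70) and at 1.82, 4.75, 1.46 and 12.6 CPM in T1-mes, T2-epi, T3-mes and T4-epi, and the groups overlapped (log2 difference −0.078, SE 0.82, adjusted p = 0.953, edgeR).

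Serpine2 was the exception. It was at 27.1 to 166 CPM in the 6 tumors (median 85.4), at 26.9 CPM in T1-mes, at 13.6 CPM in T3-mes, and at 0 reads in T2-epi, T4-epi and all 3 TBP clone libraries. Every tumor was above every tumor organoid line, as for 12.7% of 10605 genes, but T1-mes at 26.9 CPM lay just under Tumor 2 at 27.1. The log2 difference of 3.20 (SE 1.09) had an adjusted p of 0.05002 (edgeR), just above the threshold of 0.05, and edgeR called 15.1% of all genes higher in tumors. DESeq2 gave an adjusted p of 0.00963 and called 17.8% of all genes higher. The summed level of 7 fibroblast markers was 9650 to 56973 CPM in tumors and 31.3 to 7532 CPM in tumor organoids, and its part in the Serpine2 difference was not tested.

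**Figure D4:**
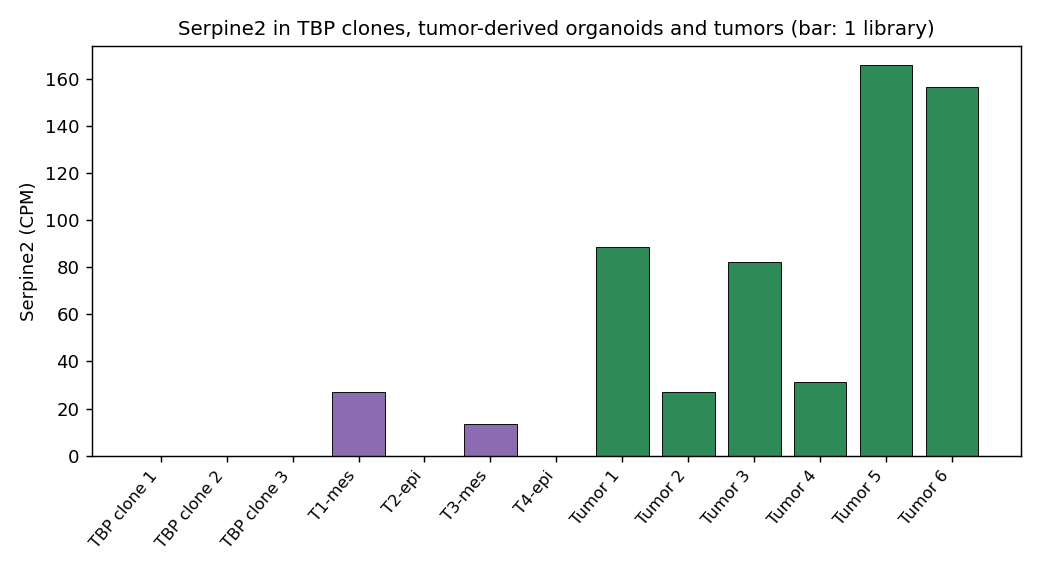
Serpine2 in CPM, 1 bar per library, in 3 TBP clone libraries, 4 tumor organoid lines and 6 TBP tumors. The clones and both epi lines are at 0, T1-mes and T3-mes are at 26.9 and 13.6 CPM, and the tumors range from 27.1 to 166 CPM.

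Most of the other granulosa genes tested were also called higher in OSE tissue, in part because of the filter on low counts. Of 22 further granulosa genes 19 were tested against OSE organoids, of which 13 were higher and 2 lower (edgeR; 18.6% and 14.5% of all genes), with a median log2 fold change of 4.37. Among the 13, Nr5a2, Hsd17b1, Fst, Esr2, Lhcgr and Bex2 had at most 3 reads in each OSE organoid library. They passed the filter through their tissue reads alone, so they had to come out higher and the count is a description. The median of 4.37 takes their fitted values and not their bounds. The 2 lower genes were Areg (log2 fold change −5.28, adjusted p = 0.0109, edgeR) and Kitl (−2.18, adjusted p = 0.0277, edgeR). Against oviduct tissue 16 were tested, and 14 were higher (24.3% of all genes, with 26.9% lower). The other 2 did not pass, and the median was 5.24. Inhba, Hsd17b1, Esr2 and Lhcgr had at most 3 reads in each oviduct tissue library, and this median takes their fitted values. Nr5a2, a nuclear receptor needed for ovulation, was at least 92.0-fold higher in OSE tissue than in OSE organoids. Hsd17b1, which makes estradiol from estrone, was at least 78.6-fold higher, and Fst, whose protein binds activin, at least 100.1-fold. Esr2, the estrogen receptor of granulosa cells, was at least 38.2-fold higher. These 4 had at most 1 read in each OSE organoid library and passed the filter through their tissue reads alone, so their bounds are a description. Amhr2, the receptor for anti-Mullerian hormone, whose ligand could not be followed here, was at 185, 176 and 140 CPM in OSE tissue and had a log2 fold change of 7.01 (SE 0.63). Lhcgr, the receptor for luteinizing hormone, was at 49.1, 112 and 76.4 CPM and at least 41.5-fold higher.

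Genes of the steroid pathway outside the 9 were mixed. Of the 23 with a row, all were tested against OSE organoids, and 12 were higher and 5 lower (edgeR; 18.6% and 14.5% of all genes), with a median log2 fold change of 1.97. Among the 12, Prlr, Nr5a1, Sfrp4 and Fdxr had at most 3 reads in each OSE organoid library, so their calls are a description. Against oviduct tissue 14 of 22 were higher and 3 lower (24.3% and 26.9% of all genes). Nr5a1, which encodes SF-1, was at 83.8, 66.4 and 103 CPM in OSE tissue, at least 44.4-fold above OSE organoids, and Prlr, the prolactin receptor, was at least 53.2-fold higher. Hsd17b7, an enzyme of cholesterol and estradiol synthesis, had a log2 fold change of 3.11 (SE 0.32). Por, the electron donor of microsomal P450 enzymes including those of Cyp17a1 and Cyp19a1, was lower in OSE tissue, with a log2 fold change of −2.53 (SE 0.27, adjusted p = 0.00113, edgeR). Hsd3b6 has no row in the table.

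The beta subunits that pair with the Inha product behaved differently in culture. They were singled out after their values were seen. Inhba was at 262, 444 and 449 CPM in OSE tissue and at 0 and 3.55 CPM in OSE organoids, a log2 fold change of 7.47 (SE 0.80, adjusted p = 0.00116, edgeR). Inhbb was at 1071, 1253 and 1573 CPM in OSE tissue but also at 331, 542 and 452 CPM in oviductal organoids, at 33.6 and 71.4 CPM in OSE organoids and at 1556 CPM in T3-mes. In the oviduct Inhbb was lower in tissue than in organoids by a log2 difference of −3.57 (SE 0.27, adjusted p = 1.19e-06, edgeR), the opposite direction to Inha. Its step from tissue to organoid differed between OSE and oviduct by 8.24 on the log2 scale (SE 0.56, adjusted p = 9.33e-06, edgeR).

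**Figure D5:**
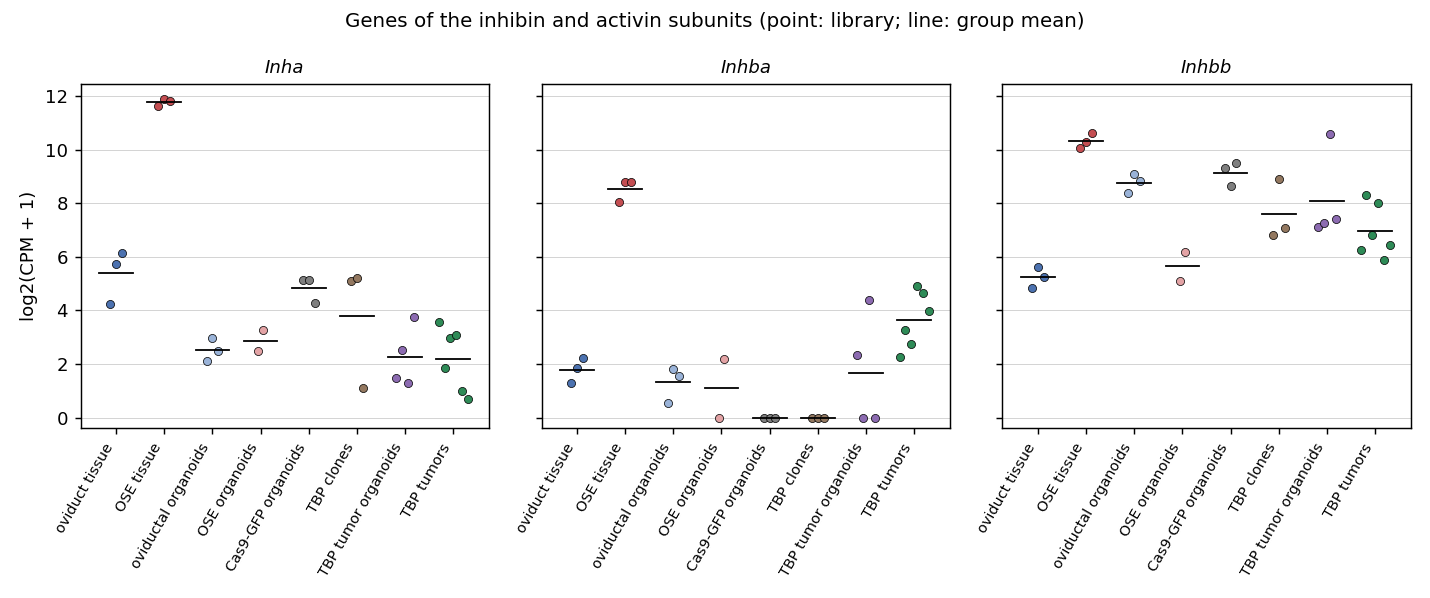
Inha, Inhba and Inhbb in log2(CPM + 1), 1 point per library, with a line at the mean of each group's log values. All 3 are highest on average in OSE tissue, and Inhbb is also above 33 CPM in every organoid, clone and tumor library.

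Oocyte markers moved with the 9 genes from OSE tissue to OSE organoids and between the 2 tissues. Fibroblast and endothelial markers did so from tissue to organoids but not between the 2 tissues. All 6 fibroblast and all 6 endothelial genes tested were called higher in oviduct tissue than in oviductal organoids (24.2% of all genes, edgeR). No oocyte gene had enough reads to be tested there. The 17 oocyte markers summed to 1100 to 1406 CPM in OSE tissue, 16.0 to 22.0 CPM in oviduct tissue and 0.763 to 3.55 CPM in OSE organoids, with 14 of the 17 at 0 in both OSE organoids. All 16 oocyte genes tested were called higher in OSE tissue than in OSE organoids (18.6% of all genes) and all 15 tested were called higher than in oviduct tissue (24.3%, edgeR). Most passed the filter through their OSE tissue reads alone, so these counts are a description. The oviduct tissue sum was 1.62% of the OSE tissue sum, beside 1.84% for the 9 genes. It was 11.2% for the other granulosa genes and 24.6% for the other steroid genes. In OSE organoids the share was 0.178% for oocyte markers and 0.127% for the 9 genes. There it was 12.7% for the other granulosa genes and 32.7% for the other steroid genes. Fibroblast markers were at 1726 to 3221 CPM in OSE tissue and at 0.763 to 39.0 CPM in OSE organoids, and endothelial markers at 69.4 to 94.5 CPM and at 0. Unlike the 9 genes, both sums were higher in oviduct tissue than in OSE tissue, at 3809 to 7033 CPM and 123 to 142 CPM. Markers of mesothelium and OSE, which should define the labelled tissue, summed to 1727 to 2074 CPM in OSE tissue and 8478 to 9569.5 CPM in OSE organoids. The larger sum in the organoids rests mainly on keratins shared with other epithelia, with Krt7 at 3024 and 3594 CPM there. Of 12 tested, Upk1b, Bnc1, Lrrn4, Gpm6a and Aldh1a1 were higher in the tissue, by log2 fold changes of 2.75 to 7.03, and Krt7, Krt8, Krt18, Krt19 and Msln were lower (edgeR). Upk1b was at 109, 87.3 and 84.4 CPM in OSE tissue and at 0 and 4.05 CPM in OSE organoids, while Upk3b, another gene of mesothelium, had 8, 4 and 2 reads in OSE tissue. The part of these cells in the level of the 9 genes was not tested.

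The genes whose log2 CPM followed Inha most closely over the 27 libraries, among 12702 genes, were Rhox8 (Pearson r 0.916), Nlrp14 (0.914), AU015836 (0.913), C86187 (0.913) and Oog3 (0.912). For Star they were Akr1cl (0.946), Gdf9 (0.929), Nap1l5 (0.929), Adamts19 (0.928) and Upk1b (0.928). Gdf9 encodes a growth factor secreted by the oocyte. The 10 averaged 12.9 to 2361 CPM in OSE tissue, and the points share the 3 OSE tissue libraries, whose separation from the other 24 sets these values. By Spearman's rho 0 of the 5 genes nearest to Inha and 2 of the 5 nearest to Star were the same.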

How the data were processed

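RNA of 27 libraries was sequenced by CEL-Seq2 (75-base paired reads). Per the submitters' processing notes and the methods, the authors aligned reads to GRCm38 with BWA, kept unique hits in the direction of transcription and deposited raw read counts per gene, with no normalization and no collapsing of molecular identifiers. They used DESeq2 1.18.0. The spike-in entry (1 count) was left out, leaving 18305 genes. Some GEO samples hold several libraries, named as in the table; the design text calls the wildtype, clone and tumor replicates independent. Of 37 replicate pairs, the lowest chi-square per gene was 2.53, above sampling noise.

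Tests between groups were made in R 4.3.3 by the edgeR 4.0.16 quasi-likelihood method (TMM, filterByExpr, Benjamini-Hochberg over all genes tested, threshold 0.05). DESeq2 1.42.0, other scalings, no filter, a fit of all libraries, a replicate block and leaving out each library were alternatives. Scripts were tested on simulated data. CPM used TMM factors over the 27 libraries, and a fold against libraries at 3 reads or fewer is a bound from that floor. Likeness used log2 CPM with a prior count of 2. Positions come from GENCODE vM21 by symbol (17121 matched). Figures were drawn with matplotlib 3.10.9.

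The genes and lists were chosen with earlier results of these data known. All 10 genes were to be named, with the 4 tested genes of smallest adjusted p from each list outside them, Nr5a1, Lhcgr, Amhr2 and Hsd3b6.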

Additional observations from a re-analysis of the deposited data

Results flagged for a closer look

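In the 6 TBP tumors Star in Tumor 5 lay far from the others, at 7.42 CPM (23 reads) with the next at 1.84 CPM. Hsd3b1 in Tumor 1, at 0.546 CPM, stood apart by a single read against 0 in the other 5 tumors. Among the 4 tumor organoid lines Cyp17a1 in T3-mes, at 2.91 CPM (6 reads), stood apart from 0 in the other 3. For Star, chance marks about 1 in 20 groups in this way; for Hsd3b1 and Cyp17a1 any read in 1 library against 0 in the rest stands apart by construction.

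The step from tissue to organoid was called different between OSE and oviduct for Inha, by 5.80 on the log2 scale (adjusted p = 0.000636, edgeR). The organoid groups overlapped for Inha, so this mostly restates its log2 difference of 6.29 between the tissues. It was also called for Serpine2, fitted at 9.88 (adjusted p = 2.27e-05, edgeR). That size depends on the prior count because OSE organoids had 0 Serpine2 reads.

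The TBP clones enter no test above. Inha in TBP clone 2 was at 36.4 CPM, just over the highest Cas9-GFP organoid library at 34.5 CPM. Star was at 5.89 CPM in TBP clone 2 (11 reads) and 2.97 CPM in TBP clone 3 (13 reads), above the highest Cas9-GFP organoid library at 1.07 CPM (1 read). These differences were not tested.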

How the results depend on the processing

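All 9 genes were called higher in OSE tissue than in OSE organoids under each alternative (DESeq2, RLE size factors, library totals only, no filter, a fit of all 27 libraries, a replicate block) and with each library left out, where the lone OSE organoid library was assumed to vary like the tissue. Against oviduct tissue the count was 9 under each alternative except the fit of all 27 libraries, where it was 8 (Foxl2, log2 difference 2.02, adjusted p = 0.0561, edgeR). Between oviduct tissue and oviductal organoids it was 8 with no filter on low counts, 6 in the fit of all 27 libraries and 4 to 5 with 1 library left out. The interaction called 2 genes, and 4 under DESeq2, where Cyp17a1 and Hsd3b1 had 0 reads in all wildtype organoids and restate the difference between the tissues. Between tumors and tumor organoids no gene was called in the comparison as reported, and 1, Serpine2, under each of DESeq2 (adjusted p = 0.00963), RLE size factors (0.0483), library totals only (0.0496) and the fit of all 27 libraries (0.00526). With 1 library left out the count was 0 to 1, with Serpine2 called without T1-mes (4.34, adjusted p = 0.0335). Inha in that comparison, uncalled at −0.078, was at 0.063 with library totals only, 0.87 without T4-epi, 0.038 without Tumor 2, 0.17 without Tumor 5 and 0.16 without Tumor 6, and ranged from −0.49 to 0.87 with 1 library left out (−0.40 without T3-mes). The cause was not tested. Without Hsd3b1 the share of reads in OSE tissue was 0.757%.

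With library totals only, the median of all genes moved from 0.06 to 0.50 against OSE organoids, from 0.00 to 0.37 against oviduct tissue and from 0.04 to 0.27 in the interaction, and genes called higher and lower went from 1902 and 1485 to 2785 and 945, from 2133 and 2362 to 3510 and 1634, and from 573 and 765 to 814 and 602. In the fit of all 27 libraries the counts were 1119 and 1565 against oviduct tissue, 1939 and 1057 (from 2298 and 1771) between oviduct tissue and organoids, and 205 and 305 in the interaction. The replicate numbers did not pair the libraries: deviations of same-numbered libraries from their group means correlated at −0.044 to 0.087. A replicate block left 9, 9, 4 and 0 of the genes called between OSE tissue and OSE organoids, the tissues, oviduct tissue and its organoids, and the wildtype organoids. For all genes it left 336 higher and 203 lower in the first of these. No paired analysis was possible for tumors because the labels do not tie the tumor organoid lines to the tumors of the same number.

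Depth limits the low genes: a count of 0 allows up to 0.684 to 33.5 CPM, and TBP clone 1, with 82239 reads, could not have shown any of the 9 genes at the levels of most organoids. The 2 OSE organoid libraries, and 3 in most groups, limit the precision.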

Other observations

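Of the other granulosa genes, 2 were singled out after their values were seen because they were read in cultured libraries. Gata4, a transcription factor of granulosa cells and of other gonadal and mesothelial cells, was at 308, 387 and 320 CPM in OSE tissue. It had no read in the 3 oviductal organoids, was at 111 and 8.11 CPM in OSE organoids, and at 105, 66.0, 33.5 and 19.9 CPM in T1-mes, T2-epi, T3-mes and T4-epi. Between OSE tissue and OSE organoids its log2 fold change of 2.52 (SE 0.90) had an adjusted p of 0.0717 (edgeR), and the 2 OSE organoid libraries lay far apart. Gata4 was lower in TBP tumors than in tumor organoids, with a log2 fold change of −2.35 (SE 0.61, adjusted p = 0.0166, edgeR).

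Nr0b1, which encodes the nuclear receptor DAX1, a partner of SF-1, was at 48.2, 46.6 and 37.7 CPM in OSE tissue. In Cas9-GFP organoids it was at 53.5, 22.4 and 62.0 CPM, although Nr5a1, the gene of SF-1, had no read there. It was at 23.8 CPM in OSE organoids 2 and had no read in OSE organoids 1. Its difference between OSE tissue and OSE organoids was not called (adjusted p = 0.214, edgeR).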
